A study of Mus musculus with 8 samples.

Results

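The interferon-stimulated genes described here are 33 genes fixed by symbol, all of which were present among the 31053 genes of the deposited matrices. They were measured in FAPs (fibro/adipogenic progenitors), stromal cells of muscle that carry the surface receptor PDGFRα, which the study compared between healthy and dysferlin-deficient mice. Live PDGFRα-positive cells had been sorted from hindlimb and psoas muscle of 8-month-old female mice and made into single-cell libraries with version 3 of the 3′ droplet kit of 10x Genomics. The wild type mice were C57BL/6. The dysferlin knockout mice are given as strain BLA/J in one label and written B6A/J in the protocol, with no allele named. Dysferlin is a membrane repair protein whose loss causes a muscular dystrophy. The labels list 4 samples in each group, but each group was deposited as 1 matrix with no map from cells to samples. Each group is therefore 1 library, there is no test between the groups and no p-value, and the effects of genotype, of strain and of the single library cannot be told apart. Pairs of values below give the wild type first and the knockout second.

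The cells used were barcodes with at least 500 genes, at most 10% mitochondrial unique molecular identifiers (UMIs, the count of distinct captured transcripts) and at least 1 Pdgfra UMI. This kept 1533 of 2073 wild type barcodes and 1435 of 1724 knockout barcodes, with 14420247 and 19170199 UMIs in all. Median depth was 9177 and 12717 UMIs per cell. Each of 10 FAP markers, among them Dcn, Lum and Cd34, was seen in at least 95% of the wild type and 93.7% of the knockout cells. None of the 13 immune markers was seen in more than 3.39% of the wild type or 4.25% of the knockout cells, and the leukocyte marker Ptprc had 0 and 8 positive cells. The immune markers together made 6.38 and 72.6 UMIs per 1000000 (CPM), most of the latter from Lyz2 at 54.9 CPM. Dysf itself had 9 and 14 UMIs (log2 ratio 0.23, interval -1.08 to 1.62), so it gives the labels no check in these cells. The matrices share 13 cell barcodes, of which 2 were kept in both libraries, and leaving all of them out changed neither the summed ratio nor the count of higher members reported below.

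Interferons are secreted proteins that bind receptors on most cell types. Type I interferons signal through the receptor chains Ifnar1 and Ifnar2, the kinases Jak1 and Tyk2, and a complex containing Stat2 and Irf9 that binds a DNA element called the interferon-stimulated response element (ISRE). Interferon gamma signals through Ifngr1 and Ifngr2 to another DNA element, the gamma-activated site (GAS), and switches on Irf1 among other genes. The target genes encode sensors of viral nucleic acid, proteins that block viral replication or release, and the factors and feedback enzymes of the pathway itself.

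The promoter sequences that follow are from the members with ISRE letters before the transcription start, which were all higher in the knockout library. Ifih1, Ddx58, Eif2ak2 and Ifitm3 had ISRE letters only from the start onward and are not shown. Their log2 ratios were 0.60, 1.04, 1.03 and 0.42, the last under 1.5-fold. Irf1 (-0.54), which was not higher, is an example with GAS letters. Other members with GAS letters before the start had ratios of 1.29 (Bst2), 1.03 (Eif2ak2) and -0.02 (Ifit2). The sequences shown are thus a choice from which nothing about letters and ratios is read. Of the 14 searched members without ISRE letters, 9 were also at least 1.5-fold higher. A link between letters and ratios was not tested. RefSeq promoter windows of 300 bases (250 before and 50 from the transcription start, GRCm38.p6, the same assembly as the mm10 build named for these data) were found for 25 of the 33 members. Both strands were searched for the ISRE letters, GAAA then any 2 bases then GAAA (TTTC, 2 bases and TTTC on the other strand), and for the GAS letters, TTC then any 3 bases then GAA, which read the same on both strands. Matches of the 2 motifs may overlap. An ISRE match was present in 11 of the 25 members (44%) and in 3.99% of all 27025 genes of the table. A GAS match was present in 6 of the 25 (24%) and in 9.55% of all genes. A match describes letters in this window and is not a shown binding site. In each stretch the capitals mark the matches of the motif named with it, the strand is that of the gene, and positions count back from the transcription start.

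Isg15, chr4:156200855-156200916, minus strand, 3 overlapping ISRE matches from -78: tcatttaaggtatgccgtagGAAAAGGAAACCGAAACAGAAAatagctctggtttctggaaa
Bst2, chr8:71537567-71537622, minus strand, 2 overlapping ISRE matches from -130: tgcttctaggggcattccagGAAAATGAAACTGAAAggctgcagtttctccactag
Ifit1, chr19:34640765-34640833, plus strand, 2 ISRE matches at -104 and -85: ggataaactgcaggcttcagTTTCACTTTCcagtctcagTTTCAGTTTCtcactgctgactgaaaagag
Ifit3, chr19:34583353-34583436, plus strand, 2 ISRE matches at -156 and -122: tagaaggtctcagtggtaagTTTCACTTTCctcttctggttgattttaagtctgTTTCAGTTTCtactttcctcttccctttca
Ifit3b, chr19:34607749-34607832, plus strand, 2 ISRE matches at -188 and -154: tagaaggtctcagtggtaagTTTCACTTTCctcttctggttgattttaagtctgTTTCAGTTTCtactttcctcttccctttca
Rsad2, chr12:26456543-26456592, minus strand, 1 ISRE match at -120: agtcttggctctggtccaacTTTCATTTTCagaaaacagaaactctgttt
Stat2, chr10:128270256-128270305, plus strand, 1 ISRE match at -222: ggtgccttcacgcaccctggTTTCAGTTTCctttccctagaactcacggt
Irf1, chr11:53769904-53769952, plus strand, 1 GAS match at -90: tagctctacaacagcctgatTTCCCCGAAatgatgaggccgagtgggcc

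The Bst2 stretch also holds a GAS match from -136 that overlaps the first ISRE match and is left in lower case outside it. The stretches of Ifit3 and its neighbour Ifit3b are letter for letter the same over 84 bases. Ifih1, Ddx58, Eif2ak2 and Ifitm3 also had an ISRE match, but only in the 50 bases from the start onward. GAS matches before the start of Ifit2, at -241, and of Eif2ak2, at -178, are not shown. The 8 members Ifi27, Ifi27l2a, Usp18, Dhx58, Parp9, Parp14, Rtp4 and Zbp1 have no window in the table. Several members lie side by side in the genome (GENCODE M21 on GRCm38). Ifit2, Ifit3, Ifit3b and Ifit1 stand in this order on the plus strand of chromosome 19, Ifi27 and Ifi27l2a face each other 1927 bases apart on chromosome 12, and Rsad2 and Cmpk2 point away from each other there with 12751 bases between them. Parp9 and Dtx3l overlap at their starts on opposite strands of chromosome 16, with Parp14 54966 bases from Dtx3l.

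Most of the interferon-stimulated genes had more transcripts in the knockout library. Of the 32 members with a mean level of at least 5 CPM over both libraries, 24 (75%) were higher in knockout cells by 1.5-fold or more and 0 were lower by that much. Among all 9869 genes at that level, 6.42% passed the same line upward and 4.31% downward. The minimum is on the mean of both libraries, for members and all genes alike, so a gene can pass through its knockout level alone. Ifi44, Rsad2 and Ifit3b did so, with 0.693, 3.26 and 3.88 CPM in the wild type library. The median log2 ratio of knockout over wild type was 0.93 over the 32 members, or 1.91-fold, and 0.05 over all 9869 genes. At 2-fold, 15 members were higher and 0 lower, against 2.50% and 1.28% of all genes. With a minimum of 20 CPM, 19 of 24 members were higher and 0 lower, against 5.07% and 3.59% of genes. This is not an independent check. Irf7, Ifit1, Ifit3, Ddx58, Rtp4, Parp9, Dtx3l and Trim25 passed that minimum with only 12.6 to 19.4 CPM in the wild type library. Dhx58, at 2.84 and 7.04 CPM, was the only member under the minimum. Just past the 1.5-fold line were Ifih1 and Trim25 at 1.52-fold and Irf9 at 1.57-fold, and just short of it were Ifitm3 at 1.34-fold and Parp14 at 1.30-fold. The 95% counting interval of the ratio, an exact conditional binomial interval that covers counting error only, lay above 0 for 29 of the 33 members, below 0 for Irf1 and across 0 for Ifit2, Ifi35 and Cmpk2.

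**Figure D1:**
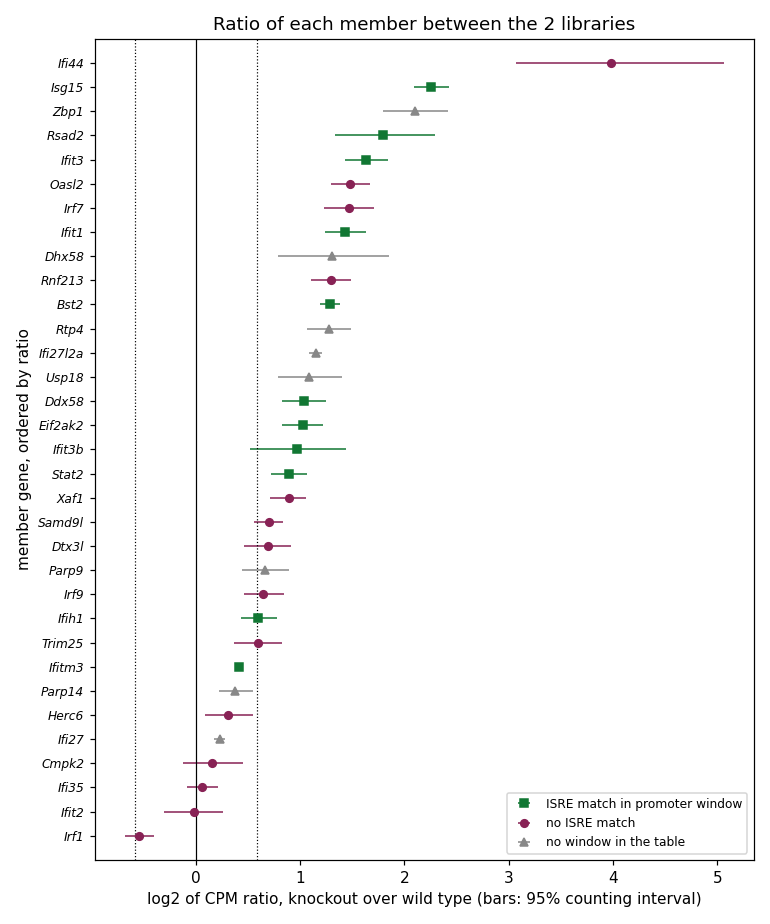
Log2 ratio of CPM in the knockout over the wild type library (horizontal axis) for each of the 33 members (vertical axis), with 95% counting intervals as bars, dotted lines at 1.5-fold, and symbols for whether the promoter window holds an ISRE match. Irf1 stands alone on the left at -0.54, and Ifi44, Isg15 and Zbp1 lead on the right at 3.98, 2.26 and 2.10.

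Of the 24 higher members, 18 stayed at least 1.5-fold higher in each of the 12 alternative selections, scalings and depths tried on single members. Ifit3b, Irf9, Ifih1, Parp9, Trim25 and Samd9l fell short of 1.5-fold in at least 1 of them, and Ifit3b had 0.44 in place of 0.97 when each cell was thinned to 3000 UMIs.

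The members spanned a wide range of levels. Because the kit tags each transcript once near its 3′ end, CPM values were compared between genes without dividing by length. In the wild type library they ran from 0.693 CPM for Ifi44 to 1645 CPM for Ifitm3, with a median of 19.4 CPM, and the knockout median was 41.7 CPM. Ifitm3, a membrane protein that blocks the entry of enveloped viruses, alone gave 57.8% and 50.5% of all member UMIs. With Ifi27l2a and Ifi27 the share was 76.9% and 70.7%. The summed members were therefore also followed without these 3 genes.

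**Figure D2:**
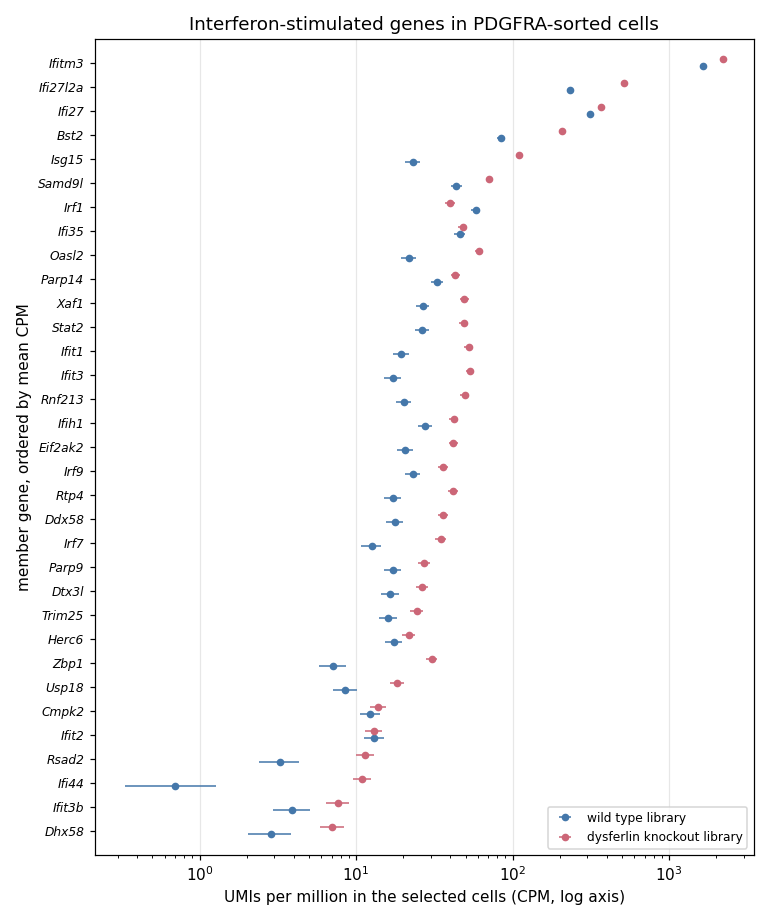
Level of each of the 33 members in CPM (horizontal log axis) in the wild type and knockout libraries, ordered by mean level, with exact 95% Poisson intervals as bars. Knockout points lie to the right of wild type points for most members, while those of Ifi35, Ifit2 and Cmpk2 nearly coincide and those of Irf1 are in reverse order.

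The summed level of all 33 members was 2846 and 4361 CPM, a log2 ratio of 0.62 (0.60 to 0.63). Without Ifitm3, Ifi27l2a and Ifi27 the other 30 members summed to 657 and 1277 CPM, a log2 ratio of 0.96 (0.92 to 0.99). The summed ratio was thus larger without these 3 genes. Of the 3, Ifitm3 (0.42) and Ifi27 (0.23) had smaller ratios than the other 30 together, and Ifi27l2a (1.15) had a larger one.

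Among the transcription factors, the parts of the type I interferon complex were higher and Irf1 was lower. Irf7, which amplifies type I interferon production, had 181 UMIs (12.6 CPM) and 665 UMIs (34.7 CPM), a log2 ratio of 1.47 (1.23 to 1.71). Stat2 had 26.3 and 48.8 CPM (0.89, 0.72 to 1.07), and Irf9, the DNA-binding partner of that complex, had 23.0 and 36.1 CPM (0.65, 0.46 to 0.85). Irf1 (chromosome 11, 53770014 to 53778374), a factor strongly induced by interferon gamma, had 838 UMIs (58.1 CPM) and 767 UMIs (40.0 CPM). Its ratio was -0.54 (-0.68 to -0.40), or 1.45-fold lower, and it was below 0 in each of the 12 alternatives, between -0.62 and -0.52. The chemokine gene Cxcl9, another target of interferon gamma and not a member, went the other way. It had 36 and 5191 UMIs (6.76, 6.29 to 7.28). Exons of Irf9 overlap those of Rnf31 on the same strand, and exons of Irf1 and Irf7 overlap a gene on the other strand. Other members also share exons with a gene on the same strand (Rtp4, Parp14 and Herc6) or the other strand (Usp18, Rnf213, Eif2ak2, Ifi35 and Dhx58). The counts of all these genes are less certain where strand or overlap was not resolved.

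The genes of ISG15 modification differed widely in size. Isg15 (chromosome 4, 156199424 to 156200818), a ubiquitin-like protein that is attached to other proteins, had 332 UMIs (23.0 CPM) and 2112 UMIs (110 CPM), a log2 ratio of 2.26 (2.09 to 2.43). Usp18, the protease that removes it and dampens receptor signalling, had 8.53 and 18.2 CPM (1.09, 0.79 to 1.40). Trim25, a ubiquitin ligase that acts on the RNA sensor encoded by Ddx58, had 16.1 and 24.4 CPM (0.60, 0.37 to 0.83). Herc6, the main mouse ligase for Isg15, had 251 UMIs (17.4 CPM) and 415 UMIs (21.6 CPM). Its ratio of 0.31 (0.09 to 0.55) was under 1.5-fold and went to -0.01 in cells thinned to 3000 UMIs.

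The IFIT genes, whose products bind viral RNA and block its translation, were split although they are neighbours. Ifit3 had 248 UMIs (17.2 CPM) and 1022 UMIs (53.3 CPM), a ratio of 1.63 (1.43 to 1.84), and Ifit1 had 19.4 and 52.4 CPM (1.43, 1.24 to 1.63). Ifit3b had 3.88 and 7.62 CPM (0.97, 0.52 to 1.44). Ifit2, which lies 7111 bases upstream of Ifit3, had 189 UMIs (13.1 CPM) and 248 UMIs (12.9 CPM), a ratio of -0.02 (-0.30 to 0.26). Ifit2 was level in the libraries where its neighbour Ifit3 was 3.10-fold apart. The Ifit2 window holds a GAS match and no ISRE match, and whether this is linked to its ratio was not tested. Of the 31-base words in the last 500 bases of Ifit3, where 3′ tags arise, 24.0% also occur in Ifit3b, so reads of these copies may have been divided between them or dropped.

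Of the 4 nucleic acid sensors, 3 were past the minimum and these 3 were at least 1.5-fold higher, Ifih1 only just. Zbp1, a sensor of Z-form nucleic acid that can start necroptosis, had 102 UMIs (7.07 CPM) and 583 UMIs (30.4 CPM), a ratio of 2.10 (1.80 to 2.42). Ddx58, which encodes the RNA sensor RIG-I, had 17.6 and 36.1 CPM (1.04, 0.83 to 1.25), and Ifih1, which encodes MDA5, had 27.7 and 41.9 CPM (0.60, 0.43 to 0.78). Dhx58, the LGP2 regulator of both, had 41 and 135 UMIs (1.31, 0.79 to 1.85), and 2.00 in thinned cells.

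Of the other antiviral effectors, 6 of 8 were at least 1.5-fold higher. Bst2, or tetherin, which holds budding viruses at the cell surface, had 1220 UMIs (84.6 CPM) and 3957 UMIs (206 CPM), a ratio of 1.29 (1.19 to 1.38). Rsad2, or viperin, had 47 UMIs (3.26 CPM) and 218 UMIs (11.4 CPM), a ratio of 1.80 (1.34 to 2.29). Its neighbour Cmpk2, a nucleotide kinase of mitochondria, had 178 UMIs (12.3 CPM) and 265 UMIs (13.8 CPM), and its ratio of 0.16 (-0.12 to 0.45) spanned 0. As in the IFIT cluster, neighbouring members were thus not equally far apart between the libraries. Oasl2 had 312 UMIs (21.6 CPM) and 1161 UMIs (60.6 CPM), with a ratio of 1.48 (1.30 to 1.67). The large ubiquitin ligase gene Rnf213 had 20.1 and 49.5 CPM (1.30, 1.11 to 1.49), Eif2ak2, the RNA-activated kinase PKR that halts translation, 20.5 and 41.8 CPM (1.03, 0.83 to 1.22), and Samd9l, a growth-restraining antiviral gene, 631 UMIs (43.8 CPM) and 1361 UMIs (71.0 CPM) with a ratio of 0.70 (0.56 to 0.84). Ifitm3 had 23723 UMIs (1645 CPM) and 42250 UMIs (2204 CPM), a ratio of 0.42 (0.40 to 0.44). The most abundant member thus differed by less than 1.5-fold.

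The related IFI27 genes also parted. Ifi27l2a had 3341 UMIs (232 CPM) and 9855 UMIs (514 CPM), a ratio of 1.15 (1.09 to 1.21). Ifi27, the neighbouring gene for a mitochondrial membrane protein, had 4500 UMIs (312 CPM) and 7019 UMIs (366 CPM), a ratio of 0.23 (0.18 to 0.28). Ifi27 was the higher of the pair in the wild type library and Ifi27l2a in the knockout library. Xaf1, a proapoptotic antagonist of an apoptosis inhibitor, had 26.6 and 49.1 CPM (0.89, 0.71 to 1.06).

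The remaining members had ratios from 0.06 to 3.98. Parp9 and Dtx3l, which work as a complex of an ADP-ribosyltransferase and a ubiquitin ligase, were close to each other at 17.1 and 27.1 CPM (0.66, 0.44 to 0.89) and at 16.5 and 26.6 CPM (0.69, 0.46 to 0.91). Their exons overlap on opposite strands. Parp14 had 475 UMIs (32.9 CPM) and 824 UMIs (43.0 CPM), a ratio of 0.38 (0.22 to 0.55). Rtp4 had 17.2 and 41.7 CPM (1.28, 1.07 to 1.49). Ifi44 had 10 UMIs (0.693 CPM) and 210 UMIs (11.0 CPM), a ratio of 3.98 (3.07 to 5.06) that rests on few wild type counts and was 4.84 in thinned cells. Ifi35, an NMI-binding protein, had 661 UMIs (45.8 CPM) and 918 UMIs (47.9 CPM), and its ratio of 0.06 (-0.08 to 0.21) spanned 0.

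The members with an ISRE match and those without covered overlapping ratios. The 11 with a match ran from 0.42 for Ifitm3 to 2.26 for Isg15 with a median of 1.04, and 10 of them were at least 1.5-fold higher. The 14 with a window but no match ran from -0.54 for Irf1 to 3.98 for Ifi44 with a median of 0.67, and 9 were at least 1.5-fold higher. The 6 members with a GAS match, among them Irf1, Ifit2 and Ifi35, had a median of 0.24, and 2 of them (Bst2 and Eif2ak2, which also have an ISRE match) were at least 1.5-fold higher. These groups are small and the difference between them was not tested.

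The interferon genes themselves were almost unseen in these cells. Of 21 interferon ligand genes, 18 had 0 UMIs in both libraries, Ifnb1 and the listed Ifna genes among them, where a count of 0 still allows 0.208 and 0.156 CPM. Ifng had 0 and 3 UMIs, Ifnz 4 and 1, and Ifnab 0 and 1. The type I receptor chains were at similar levels, with Ifnar1 at 25.9 and 30.3 CPM and Ifnar2 at 111 and 126 CPM (log2 ratios 0.23 and 0.18). Of the interferon gamma receptor, the ligand-binding chain Ifngr1 was 1.80-fold lower in the knockout library, at 571 and 317 CPM (-0.85, -0.90 to -0.80), while Ifngr2 had 31.8 and 45.0 CPM (0.50, 0.34 to 0.67). Ifnlr1, the type III receptor chain, had 0 UMIs in both. Its partner chain Il10rb had 43.5 and 33.2 CPM (-0.39, -0.55 to -0.23). Of the 8 receptor and kinase genes past the minimum, 1 was at least 1.5-fold lower and 0 higher, beside 4.31% and 6.42% of all genes. Their median was 0.20. The kinases Jak1 and Jak2 had ratios of 0.32 and 0.46, and Tyk2 had -0.10 (-0.43 to 0.22).

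Of the transcription factors outside the members, Stat3 had 0.50, Irf2 -0.06 and Irf3 -0.09 as log2 ratios, each within 1.5-fold. Irf8, under the minimum, had 16 and 122 UMIs (2.52, 1.76 to 3.37). Which of the selected cells held the Irf8 UMIs was not tested, and immune markers were also higher in the knockout library (6.38 and 72.6 CPM). Beside 6.42% of all genes upward and 4.31% downward, 2 of 8 sensors and adaptors past the minimum passed 1.5-fold upward and 0 downward (median 0.19). These were Tmem173, which encodes the DNA-pathway adaptor STING (13.9 and 25.4 CPM, 0.87, 0.63 to 1.11), and the kinase gene Ikbke (4.44 and 6.99 CPM, 0.66, 0.22 to 1.11), whereas the RNA sensor Tlr3 (0.29) and the adaptor Mavs (0.22) were within 1.5-fold. Of 6 feedback inhibitors 1 was lower and 0 higher, beside 4.31% and 6.42% of all genes, with a median of 0.09. Nothing is read from the counts in lists this short. Socs3 had 314 and 184 CPM, or 1.71-fold lower (-0.77, -0.84 to -0.71), and Socs1 had 21.9 and 27.9 CPM (0.35, 0.14 to 0.55). The phosphatase genes Ptpn2 and Ptpn11 had ratios of 0.26 and 0.12.

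A wider list of interferon-stimulated genes outside the 33 held both higher genes and genes within 1.5-fold. Of its 33 genes past the minimum, 16 were at least 1.5-fold higher, 1 was lower and 16 lay within 1.5-fold, beside 6.42% and 4.31% of all genes. Its median log2 ratio was 0.54, and its difference from the members was not tested. The 2-5A synthetase gene Oas2 had 23 and 200 UMIs (2.71, 2.08 to 3.40), the Schlafen genes Slfn2 and Slfn9 had ratios of 2.30 (1.86 to 2.78) and 1.94 (1.46 to 2.44), and the secreted glycoprotein gene Lgals3bp had 51.9 and 146 CPM (1.50, 1.38 to 1.61). Mx1, the classical myxovirus resistance gene, had 0 and 18 UMIs. Of the 47 listed genes, Mx2, Oas1b and Mnda were not among the rows of the matrices.

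The score, the summed UMIs of the members in a cell, had a higher median and a longer tail in the knockout library. To compare cells at equal depth, each cell was thinned at random to 3000 UMIs, which left out 114 wild type and 69 knockout cells with fewer. Over the 30 members other than Ifitm3, Ifi27l2a and Ifi27, the median cell had 1 UMI in the wild type (1419 cells) and 3 UMIs in the knockout library (1366 cells). The 10th percentile was 0 and 1 UMIs, the 25th percentile 1 in both, the 90th percentile 4 and 8, the 99th percentile 12 and 27, and the highest cell 35 and 68. Cells with none of the 30 made up 21.8% of the wild type and 8.42% of the knockout cells. Without thinning, the median was 5.08 and 8.78 UMIs per 10000. Fewer knockout cells thus lacked these transcripts at equal depth, and more of them lay in the tail.

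The score varied more over knockout cells in UMIs, but its highest 10% of cells held a similar share in both libraries. The variance divided by the mean (the Fano factor, which is 1 for pure counting noise) was 3.04 and 6.60, at means of 2.00 and 3.90 UMIs. The 10% of cells with the highest scores held 36.1% and 37.5% of the thinned UMIs of these members. Cells above 12 UMIs, the wild type 99th percentile, were 13 of 1419 wild type cells (0.916%), a share that the choice of line sets. In the knockout library they were 52 of 1366 cells (3.81%, exact 95% binomial interval 2.86 to 4.96, counting error only). The score has no gap, so these are ends of a range and not a cell type, and 6 and 18 cells lay within 1 UMI of that line. For all 33 members the median was 8 and 11 UMIs, with Fano factors of 3.41 and 5.84.

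**Figure D3:**
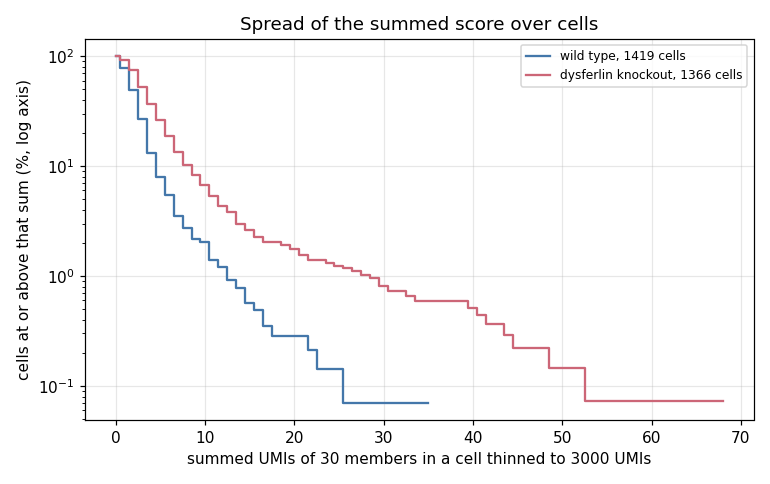
Share of cells (vertical log axis, percent) at or above each summed UMI count of the 30 members other than Ifitm3, Ifi27l2a and Ifi27 (horizontal axis), in cells thinned to 3000 UMIs. The knockout curve lies above the wild type curve from 1 UMI on and ends at 68 UMIs, against 35 UMIs in the wild type.

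Most members had higher levels in the pooled high-scoring cells of both libraries, which does not mean that single cells carried most of them. For each member, cells were ranked by the thinned sum of the other members (again without Ifitm3, Ifi27l2a and Ifi27), and its CPM in at most the highest 10% of cells was set against the rest, so that no gene chose its own cells. In the wild type library 30 of 33 members, and in the knockout library 32 of 33, were at least 1.5-fold higher in the high cells, 0 were at least 1.5-fold lower, and the median was 3.20-fold and 3.21-fold. Of the 32 members past the 5 CPM minimum, 29 and 31 were that much higher. The same cells set apart 4.24% and 3.82% of all 9869 genes upward and 7.53% and 6.53% downward, with a median of 0.978-fold and 0.981-fold. With the score of all members, Ifitm3 included, the counts were 28 and 30 of 33 and the medians 2.30-fold and 2.77-fold, against 4.23% and 2.85% of all genes upward and 10.4% and 7.42% downward. In the first of these rankings Isg15 had 158 CPM in high and 11.6 CPM in other wild type cells, and 623 and 61.5 CPM in knockout cells. Ifit1 had 157 and 8.30 CPM in wild type cells and 318 and 24.1 CPM in knockout cells, and Rsad2 22.2 and 1.53 CPM and 84.6 and 4.31 CPM. The steepest members were Rsad2, Ifi44, Isg15 and the IFIT genes Ifit1, Ifit3 and Ifit3b, each over 3 on the log2 scale in both libraries, although Ifi44 had only 5 and 3 UMIs in high and other wild type cells.

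Members within 1.5-fold between the libraries could still be far apart between high-scoring and other cells. Cmpk2 had 44.4 CPM in high and 9.54 CPM in other wild type cells and 51.9 and 10.5 CPM in knockout cells (log2 2.22 and 2.31), and Herc6 had 1.72 and 1.89. Ifi35 had 0.86 and 1.16. Ifit2 was less steep than the other IFIT genes at 0.80 and 1.52. At the other end Ifi27 had 359 and 309 CPM in wild type cells and 394 and 364 CPM in knockout cells (0.22 and 0.12), and Irf1 had 0.43 and 0.94. Ifi27, although counted among the interferon-stimulated genes, hardly varied with the rest in these cells.

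**Figure D4:**
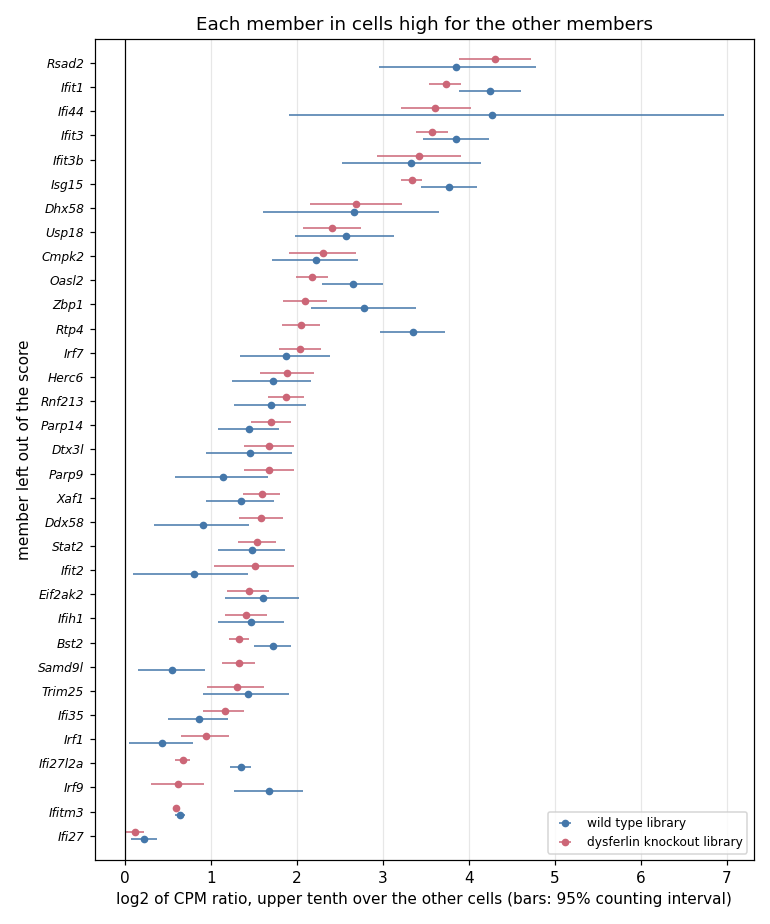
Log2 ratio of each member's CPM in the high-scoring over the other cells of the same library (horizontal axis), with the score computed without that member and without Ifitm3, Ifi27l2a and Ifi27; bars are 95% counting intervals. Rsad2, Ifit1, Ifi44 and Ifit3 lead in both libraries, and Ifi27 lies near 0 in both.

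The high-scoring cells differed little from the other cells in depth and FAP markers. On the score of the 30 members, 112 wild type cells (5 UMIs or more) and 113 knockout cells (9 UMIs or more) were high, with 109 and 47 cells next to the line. Their median depth was 9707.5 and 13594 UMIs, against 9435 and 13003 UMIs in the other cells. They had a median of 10 of the 10 FAP markers, as the other cells did. Immune markers made 4.43 CPM in the high and 6.59 CPM in the other wild type cells, and 6.22 and 79.1 CPM in knockout cells, so these were no higher in the high cells. The chemokine gene Cxcl9, a target of interferon gamma, was seen in 44.2% of the high knockout cells (50 of 113, 34.9 to 53.9) and 22.8% of the other knockout cells, but in 2 of 112 high wild type cells.

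Cells with a Cxcl9 UMI, 342 knockout cells (23.8%) and 22 wild type cells (1.44%), carried more of the members in the knockout library. These knockout cells gave 29.2% of the library's UMIs and 39.4% of the UMIs of the 30 members. In knockout cells of at least 3000 UMIs, the 30 members summed to 1707 CPM with and 1091 CPM without a Cxcl9 UMI, at median depths of 16240 and 12288 UMIs. The share of a member's knockout UMIs found in Cxcl9 cells was 63.3% for Ifi44, 53.2% for Ifit3, 53.1% for Isg15 and 49.2% for Zbp1, against 27.8% for Ifit2 and 29.9% for Irf1.

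Without the Cxcl9 cells 31 of the 33 ratios were lower than on all cells, Dtx3l (0.72) and Ifit2 (-0.01) being the others. Isg15 then had a log2 ratio of 1.65, Ifit3 1.01, Zbp1 1.59 and Irf7 1.06, with 20 of 30 members past the minimum at least 1.5-fold higher and 0 lower, against 6.06% and 3.50% of all 9865 genes in these cells. The median was 0.79 over these members and 0.07 over all genes. The folds of Isg15, Ifit3 and Ifi44 (log2 3.00) thereby moved by over 1.5 times from those on all cells. The summed ratio of all members was 0.48, against 0.62 with these cells.

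The difference between the libraries was seen in every range of FAP states examined. For each of 8 gene lists that mark FAP states, the cells with the highest thinned sums over both libraries, at most 20% of them, were taken, so a cell can be in several ranges and a range is not a type. In the wild type library the 30 members ran from 487 CPM in cells high for the activation genes Cthrc1 and Postn to 733 CPM in cells high for immediate early genes such as Egr1 and Junb. In the knockout library they ran from 923 CPM in cells high for Stmn4 and Inmt to 1399 CPM in cells high for the dystrophic matrix genes Cpxm1, C1qtnf3, Mmp3 and Sfrp1. The log2 ratio was largest for the activated range (1.52, 1.39 to 1.64) and the dystrophic matrix range (1.49, 1.28 to 1.70), and smallest for Stmn4 and Inmt (0.53, 0.41 to 0.65). The progenitor range, led by Dpp4 and Pi16, had 662 and 1383 CPM (1.06), and the interstitial range, led by Mme and Hsd11b1, had 597 and 1177 CPM (0.98).

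The number of cells behind these values differed. The dystrophic matrix range held 36 wild type and 420 knockout cells, the activated range 69 and 347, and the Stmn4 and Inmt range 407 and 67. The line was 1 UMI for Comp and Clu and for Gdf10 and Fmo2, and 2 UMIs for Stmn4 and Inmt. At the Comp and Clu line, 1287 of 1419 wild type and 1290 of 1366 knockout cells lay next to it. Because the ranges overlap and some rest on 1 or 2 UMIs, they are not independent repeats of the difference. Cxcl9 was seen in 32.6% and 38.3% of the knockout cells of the dystrophic matrix and activated ranges, and in 7.46% of those of the Stmn4 and Inmt range. Its part in the difference between ranges was not tested.

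**Figure D5:**
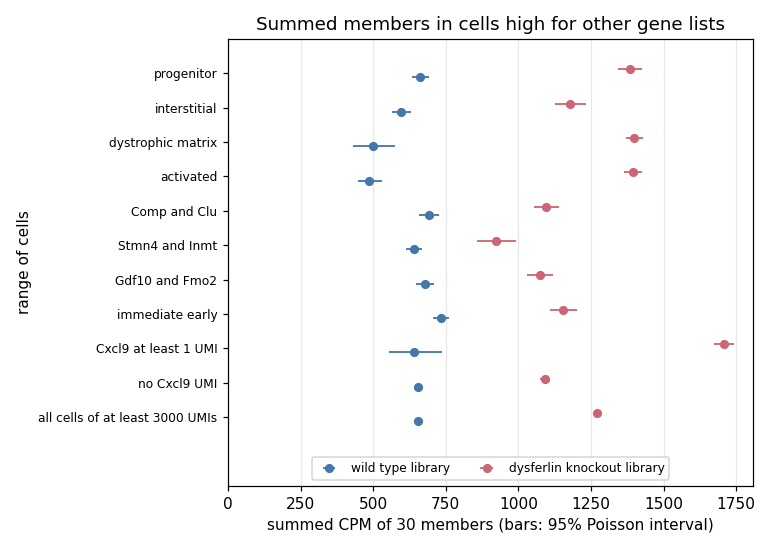
Summed CPM of the 30 members (horizontal axis) in cells of each library that are high for a gene list, or have or lack a Cxcl9 UMI (vertical axis), beside all cells of at least 3000 UMIs, with exact 95% Poisson intervals as bars. Wild type values lie between 487 and 733 CPM, and each knockout value lies above the wild type value of the same range.

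Single members followed the FAP states in different ways. Isg15 was 5.19 CPM in activated wild type cells (6 UMIs) and 131 CPM in activated knockout cells, and 147 CPM in knockout cells of the dystrophic matrix range. In Stmn4 and Inmt cells it was 16.1 and 29.3 CPM. Ifi27l2a varied within the wild type library alone, from 84.2 CPM in the interstitial to 432 CPM in the progenitor range, and in knockout cells from 334 to 839 CPM in the same ranges. Irf1 was highest in immediate early cells of both libraries, at 109 and 78.9 CPM, and its ratio was below 0 in each of the 8 ranges, with an interval that spanned 0 in the progenitor and interstitial ranges. Over all selected cells the immediate early genes were also lower in the knockout library. Egr1 had a log2 ratio of -0.80, Junb -0.74, Btg2 -1.14 and Ier2 -1.29. A link between these and the Irf1 ratio was not tested.

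Detection per cell moved with these levels. As a low reference, the red blood cell transcript Hbb-bs, which FAPs should lack, was seen in 1.55% of the thinned wild type and 2.05% of the thinned knockout cells, with a median of 1 UMI in the cells that had it before thinning. Its summed level differed far more, at 436 and 17.4 CPM, and 1 wild type cell held 6201 of the library's 6285 Hbb-bs UMIs and 2463 of its 2515 Hba-a1 UMIs. Isg15 was seen in 4.44% and 16.3% of the thinned cells (9.78% and 36.2% before thinning), Bst2 in 20.6% and 39.2%, and Ifi27l2a in 25.5% and 52.0%. Ifitm3 was seen in 96.1% and 96.9%, so its difference lay in UMIs per cell. Of the other members given with their UMIs, Oasl2 was seen in 5.36% and 14.8% of thinned cells, Zbp1 in 1.76% and 7.54%, Ifit3 in 3.66% and 9.59%, and Samd9l in 12.3% and 18.0%. Ifi27 had 54.2% and 60.0%, and Parp14 10.3% and 12.4%. Ifi35 had 12.6% in both, Ifit2 4.51% and 4.17%, Cmpk2 4.65% and 3.73%, and Irf1 12.7% and 10.1%. Ifi44, Rsad2 and Dhx58 were seen in under 1% of thinned wild type cells, below the Hbb-bs share there. In the knockout library Dhx58 (1.76%) and Ifit3b (1.90%) were below its Hbb-bs share. Nothing is read from these shares. The wild type share of Zbp1, 1.76%, was close to the Hbb-bs share.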

How the data were processed

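Each group's matrix holds whole-number UMI counts by gene and barcode as the authors deposited it. The submitters' processing notes name mm10 as the build and list Cell Ranger 3.0.0 and Seurat, without saying what Seurat was used for, while software version 3.0.2 stands in the headers of the deposited files. How cells were called, and whether strand was used in counting, were not given in the sources used here. Doublets had been gated out in the sort, per the labels' protocols, and no doublet caller was run.

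UMIs were summed per gene over the selected cells and divided by the cells' total to give CPM (UMIs per 1000000). Ratios have exact conditional binomial 95% intervals, sums exact Poisson and shares exact Clopper-Pearson intervals. All cover counting error only. A count of 0 was taken to allow 3 counts. The ratio calculation and the thinning were tested on simulated data. Python 3.11.15, numpy 2.4.6 and scipy 1.17.1 were used. Every member is named. The 10 most abundant members, the 5 with the highest and the 5 with the lowest ratios are given with their UMIs, and up to 4 genes of each pathway list by size of ratio, besides the receptors and ligands.

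The members, gene lists and state lists were chosen with earlier results of these data known. The score without Ifitm3, Ifi27l2a and Ifi27 was used for the spread over cells and the high-scoring cells after the data were seen. A gene of the pathway lists is not reported here.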

Additional observations from a re-analysis of the deposited data

How the results depend on the processing

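No paired analysis was possible because each group is 1 pooled matrix whose cells carry no replicate number. With 1 library per group nothing here measures the spread between mice. The summed log2 ratio, 0.62, was 0.58 with the stricter filter (at least 1000 genes, at most 5% mitochondrial UMIs), 0.48 without Cxcl9 cells, 0.56 on totals without mitochondrial and ribosomal protein genes, 0.56 when centred on the median of all genes, 0.85 without Ifitm3 and 0.96 without the 3 most abundant members. It stayed within its counting interval in the other 8 alternatives. The count of members at least 1.5-fold higher, 24, ran from 19 to 25 except at the 2-fold line, where it was 15. The count of members at least 1.5-fold lower, 0, was 1 (Irf1) without cells that carry another type's marker, without the deepest 2% of cells, with every cell weighted equally, on totals without mitochondrial and ribosomal protein genes, and when centred on the median. Of 396 alternative values of single members, 367 stayed within the counting interval, 29 moved outside it and 0 of the called ones changed sign. Among the members under 1.5-fold, the sign varied for Ifit2, Ifi35, Cmpk2 and Herc6. Removing cells with a marker of another type left 1087 wild type and 888 knockout cells, and 23 members were at least 1.5-fold higher there. Depth limits the members under 5 CPM in the wild type library most: Ifi44, Dhx58, Rsad2 and Ifit3b.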

Other observations

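Genes outside the 33 were ranked by the lower of their Pearson correlations with the score over the thinned cells of each library, among 6051 genes detected in at least 5% of the cells of both. With the score of the 30 members the first 10 were Ifi203, Mndal, Ly6e, Sp110, Ly6a, Slfn5, Phf11d, Ifi204, Gbp7 and Lgals3bp, at 0.10 to 0.22 in the wild type and 0.15 to 0.28 in the knockout library. With the score of all 33 members they were Rps2, Ifitm2, Ly6a, Ifi203, Rps20, Rps24, Rpl37, Rpl39, Rpl34 and Tmsb10, at 0.20 to 0.24 and 0.21 to 0.39, and 6 of these are ribosomal protein genes. The genes that led thus depended on whether Ifitm3, Ifi27l2a and Ifi27 were in the score, with Ifi203 and Ly6a in both lists. Weak correlations in sparse counts are given as a description and not as a finding.

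The HIN-200 genes of the wider list, picked out here after their values were seen, did not go one way. In wild type and knockout cells Ifi203 had 120 and 253 CPM (log2 ratio 1.08, 1.00 to 1.16) and Mndal 86.4 and 196 CPM (1.18, 1.09 to 1.28), whereas Ifi204 had 252 and 262 CPM (0.06, 0.00 to 0.12). Ifi205 had 808 and 602 CPM (-0.43, -0.46 to -0.39) and Ifi207 had 382 and 195 CPM (-0.97, -1.03 to -0.91). These genes are close copies of one another, so the counting may have divided their reads, and their values are uncertain for that reason.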
